A study of Homo sapiens with 16 samples.

Results

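The light digest of the GM12878 time course was described here on its own, as the change of nucleosome fragments at 40 and 60 min of HKST from untreated cells. All 21857 promoter rows of the 3 light-digest tables were used, on every chromosome, and they rest on 6 of the 16 samples of the series. GM12878 is a human B-lymphoblastoid line transformed with Epstein-Barr virus, and HKST is heat-killed Salmonella typhimurium, which carries the bacterial products but cannot infect. The groups were untreated cells, cells after 40 min of HKST and cells after 60 min of HKST. In all 3 groups the cells were cross-linked with formaldehyde, their nuclei were digested with 20 U of micrococcal nuclease (MNase), and DNA of mononucleosome size was captured from the 2 kb around each transcription start site (TSS). Each table is the authors' pool of 2 replicates.

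A nucleosome protects its DNA from MNase, which cuts the linker between nucleosomes first. A light digest therefore releases the nucleosomes that are reached most easily, and leaves less accessible chromatin uncut. At an active promoter the -1 and +1 nucleosomes flank a nucleosome-free region just upstream of the TSS, where transcription factors and RNA polymerase II bind. A gain of light-digest fragments can come from more nucleosomes or from nucleosomes that are cut out more easily, and light-digest fragments alone cannot tell these apart.

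Values are fragments of 140 to 200 bp, counted by their center. The tables hold 9.72 M fragments (untreated), 9.43 M (40 min) and 10.1 M (60 min), of which 75.3% to 76.0% lie in the captured rows. A median row had 331 fragments over its 2 kb and 16.8 in the 200 bp before the TSS. Changes are log2 of depth-scaled fragments (rpm) at 40 or 60 min over untreated, after 0.5 fragments were added to each. With 1 pooled table per group no spread between replicates could be measured, and no test was possible. Exact 95% intervals in brackets cover counting error only, and "beyond counting error" means that this interval leaves out 0. The extent of digestion in a tube and the time point cannot be told apart. A single untreated table serves as the base of both changes. Rows closer than 2 kb to each other share fragments, which holds for 3828 rows (17.5%). Fragments do not measure expression, so the B cell origin could not be checked through marker RNA.

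The 150 bp before the TSS are printed for 3 promoters, because they led the ranking of rises and falls at 60 min and of rises at 40 min and because base composition moved with the change. Capitals mark each CG dinucleotide. The sequences are in GRCh37, on the strand of the gene.
SNORD45C (chr1:76252607-76252756, plus strand, most gained at 60 min): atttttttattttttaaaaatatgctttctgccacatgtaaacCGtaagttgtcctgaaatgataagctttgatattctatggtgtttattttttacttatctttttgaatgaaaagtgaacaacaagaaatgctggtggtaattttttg
ENTPD2 (chr9:139948504-139948653, minus strand, most lost at 60 min): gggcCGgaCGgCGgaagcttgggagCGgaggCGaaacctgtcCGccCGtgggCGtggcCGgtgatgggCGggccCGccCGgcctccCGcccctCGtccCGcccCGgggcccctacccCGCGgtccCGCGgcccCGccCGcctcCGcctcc
ZNF77 (chr19:2944970-2945119, minus strand, most gained at 40 min): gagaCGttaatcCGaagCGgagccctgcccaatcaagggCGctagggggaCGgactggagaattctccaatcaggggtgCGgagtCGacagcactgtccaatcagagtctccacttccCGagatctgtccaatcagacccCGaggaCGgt
The 60 min gain stood beside a sequence with 1 CG and the 60 min loss beside 1 with 23, and the 40 min gain stood beside 1 with 10 CG. Over the 21837 rows with sequence the same 150 bp held a median of 9 CG, and 92.1% held at least 1. The ranking used the whole 2 kb, and few of the fragments lay in the 200 bp before the TSS. There SNORD45C had 4 untreated, 5 at 40 min and 13 at 60 min, ENTPD2 had 0 in each, and ZNF77 had 19, 26 and 38. In that window ZNF77 was beyond counting error at 60 min (0.92, 0.12 to 1.82) but not at 40 min (0.48, -0.41 to 1.43). The SNORD45C stretch lies inside the gene RABGGTB.

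The average light profile kept its nucleosomes in place and changed in height. In untreated cells the peaks of the mean stood at -610, -400 and -200 bp and at 150, 370 and 630 bp, and the lowest signal was at -80 bp. At 40 and 60 min the -1 peak stood at -210 bp and at 40 min the +2 peak at 360 bp, a shift of 1 bin of 10 bp, and the other peaks did not move. The +1 nucleosome, the first one that RNA polymerase II meets, had a mean of 1.12 rpm per 60 bp window before treatment, 1.16 at 40 min and 1.06 at 60 min. It was thus higher at 40 min and lower at 60 min than untreated. In the nucleosome-free region the mean went from 0.616 without treatment to 0.613 at 40 min and 0.588 at 60 min. The -1 nucleosome had 1.19, 1.21 and 1.21.

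As measured, the change from untreated was largest downstream of the TSS, and around the +1 and +2 peaks it had opposite signs at the 2 times. Most of this contrast was lost when base composition was allowed for (values below). Fragments summed over all rows from 80 to 220 bp, around the +1 peak, changed by 0.048 (0.042 to 0.054) at 40 min and by -0.077 (-0.083 to -0.071) at 60 min. From 300 to 440 bp, around the +2 peak, the changes were 0.039 at 40 min and -0.051 at 60 min. Upstream, from -270 to -130 bp around the -1 peak, both times were above untreated, by 0.022 and 0.013. By single positions, 40 min was highest at 140 bp (0.062) and lowest at -880 bp (-0.055), and 60 min was highest at -390 bp (0.029) and lowest at 40 bp (-0.11).

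**Figure D1:**
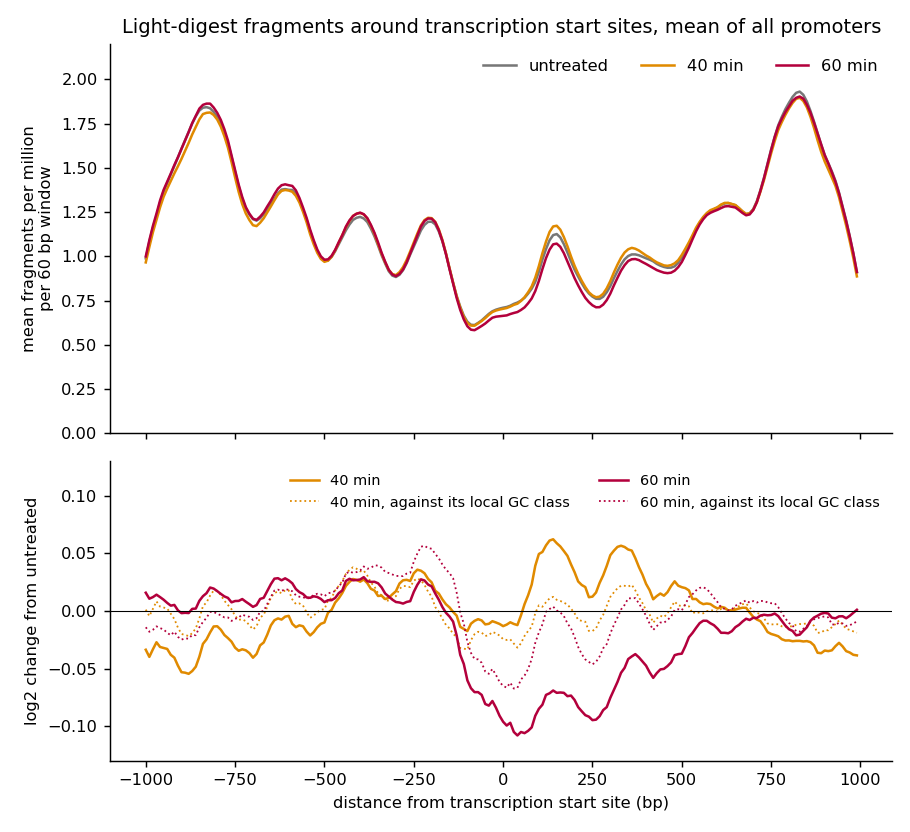
Mean light-digest signal of all rows by distance from the TSS (upper panel, rpm per 60 bp window) and its log2 change from untreated (lower panel), with dotted lines for the change against windows of the same local GC class. The 3 profiles share their peaks. From 60 to 680 bp the 40 min line lies above 0 (up to 0.062 at 140 bp) and the 60 min line below it. The 60 min line is lowest at 40 bp (-0.11), where the 40 min line is also below 0 (-0.012).

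Base composition moved with the change at both times, in opposite directions. MNase cuts AT-rich DNA more readily, and GC content also affects amplification and capture; the part of each in the change was not tested. All 60 bp windows were grouped into 11 classes by the GC content of the 160 bp around them. At 40 min the change rose steadily from -0.29 in windows under 30% GC to 0.45 in windows of 75% or more. At 60 min it was 0.25 under 30% GC, 0.26 from 30% to 35%, -0.18 from 65% to 70% and -0.0091 at 75% or more. Windows under 45% GC were thus below untreated at 40 min and above it at 60 min, and windows from 55% to 75% GC the reverse, while at 75% or more the 60 min table was level with untreated.

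**Figure D2:**
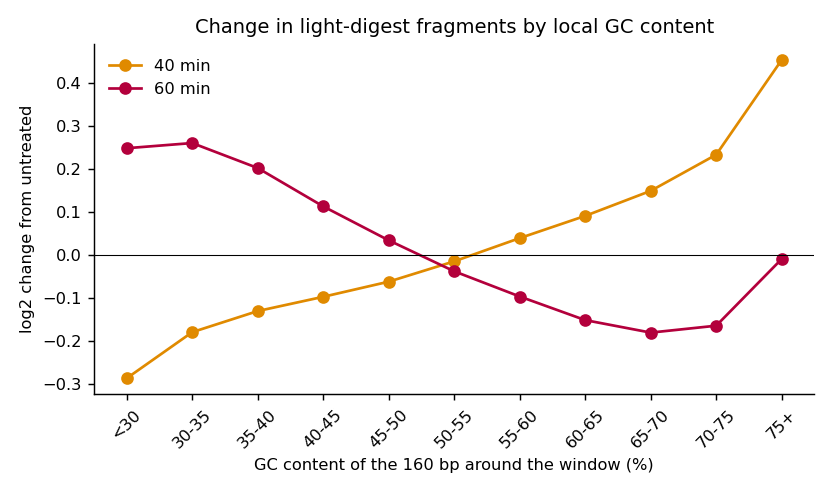
Log2 change from untreated of all fragments by the GC content (%) of the 160 bp around their window, in 11 classes, at 40 min and 60 min. The 40 min points climb from -0.29 to 0.45 and the 60 min points descend from 0.26 to -0.18 before the last class.

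Whole rows followed the same tilt at 40 min, and less steadily at 60 min. Among the rows with the lowest 10% of GC content (median 37.5% GC) the median 2 kb change was -0.15 at 40 min and 0.045 at 60 min, and among the highest 10% (median 68.7% GC) it was 0.11 and -0.11. In between, the 60 min median was -0.025 in decile 2 (median 43.9% GC), 0.046 in decile 4 (51.4%) and 0.023 in decile 6 (56.1%). Deciles of GC content held 16.7% of the variance between rows at 40 min and 5.07% at 60 min. Because of this, a second value is given beside many results below, and wherever it differed much from the first for a gene list, the change against the fragments expected if every window had changed like all windows of its GC class. It is called the GC-expected value, and this calculation was added after the data were examined. In the average profile it brought the 40 min rise at 140 bp from 0.062 to 0.012 and the 60 min fall at 40 bp from -0.11 to -0.067. Around the +1 peak it left 0.0042 at 40 min and -0.011 at 60 min, and around the +2 peak 0.011 and -0.0019. Among these peaks the larger values were then upstream, with 0.028 and 0.033 around the -2 peak and 0.0097 and 0.045 around the -1 peak. By single positions, the largest GC-expected change at 60 min was still just downstream of the TSS (-0.067 at 30 bp), beside 0.057 at -220 bp.

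Over the 2 kb the typical promoter was near 0, with more spread than counting gives. Of all rows, 21430 had a mean of at least 20 fragments and 427 did not, 271 of them without any fragment. The median change was 0.0033 at 40 min (quartiles -0.11 and 0.12) and -0.0073 at 60 min (quartiles -0.15 and 0.13). The SD over rows was 0.18 at 40 min and 0.21 at 60 min, where counting error alone gives 0.13 and 0.12. Beyond counting error, 1867 rows (8.71%) were higher and 1998 (9.32%) lower at 40 min, and 2636 (12.3%) were higher and 3265 (15.2%) lower at 60 min.

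Large changes were rare. Among the 20830 rows with at least 100 fragments, 20 (0.096%) were at least 1.5-fold higher and 16 (0.0768%) at least 1.5-fold lower at 40 min. At 60 min these were 30 (0.144%) and 62 (0.298%). Against the GC-expected values 10 were higher and 10 lower at 40 min, and 26 and 25 at 60 min, so by this allowance the excess of losses at 60 min was gone. Centred on GC deciles instead, 41 rows were lower at 60 min. In the 200 bp before the TSS, which the study takes for the -1 nucleosome, the median change was -0.0076 at 40 min and -0.031 at 60 min over 13559 rows with at least 10 fragments. Among 9896 rows with at least 20 fragments there, 59 (0.596%) were at least 2-fold higher and 87 (0.879%) lower at 40 min, and 73 (0.738%) were higher and 111 (1.12%) lower at 60 min. This window has the -1 peak of the mean profile at its edge and the lowest signal, at -80 bp, inside it. In 70 bp either side of the -1 peak the medians were 0.0032 at 40 min and -0.00026 at 60 min.

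Promoters of genes that every growing cell uses had more light-digest fragments at both times. These were 7 lists (cytosolic and mitochondrial ribosomal proteins, oxidative phosphorylation, proteasome, RNA polymerase II initiation, splicing and DNA replication), with 419 rows of at least 20 fragments. Their median change was 0.074 at 40 min (GC-expected 0.075) and 0.15 at 60 min (GC-expected 0.16), beside 0.0033 and -0.0073 over all rows. Beyond counting error 59 rows (14.1%) were higher and 10 (2.39%) lower at 40 min, and 132 (31.5%) were higher and 6 (1.43%) lower at 60 min. The share higher at 60 min was above the 12.3% of all rows, and the share lower was below their 15.2%. Their median GC content was 53.1%, beside 55.0% over all rows.

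All 7 lists had a positive median at both times. Single genes named with a list, here and below, are its highest or lowest member at 60 min. The mitochondrial ribosomal proteins, which build the ribosome of the mitochondrion, had 0.096 at 40 min and 0.19 at 60 min (GC-expected 0.091 and 0.17), with 26 of 74 rows higher and 2 lower at 60 min. MRPS21, a small-subunit member, went from 437 fragments in untreated cells to 517 at 40 min and 614 at 60 min, a change of 0.44 (0.26 to 0.62) at 60 min. MRPS2, another small-subunit member, had 131, 151 and 96 fragments and was lower at 60 min (-0.51, -0.90 to -0.11), at a GC content of 69.7%. Its GC-expected value was -0.38, and the interval then included 0. The cytosolic ribosomal proteins had 0.077 and 0.17 (GC-expected 0.080 and 0.20), with 27 of 73 rows higher and 0 lower at 60 min. RPS19, of the small subunit of the cytosolic ribosome, had 125 fragments untreated, 160 at 40 min and 201 at 60 min, a change of 0.63 (0.30 to 0.97). Neither list therefore had more than 2 members lower beyond counting error at 60 min.

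The other 5 lists lay in the same range. Medians at 40 and 60 min were 0.080 and 0.12 for oxidative phosphorylation subunits (19 of 68 rows higher and 0 lower at 60 min), and 0.088 and 0.14 for proteasome subunits (8 of 39 higher, 1 lower). For splicing factors they were 0.072 and 0.13 (10 of 48 higher, 1 lower). For RNA polymerase II initiation factors they were 0.035 and 0.11 (25 of 73 higher, 1 lower), and for DNA replication factors 0.028 and 0.15 (17 of 44 higher, 1 lower). The GC-expected medians at 40 min were 0.058 and 0.043 for these last lists. SF3B1, the spliceosome protein that helps to recognize the branch point, had 261 fragments untreated, 239 at 40 min and 389 at 60 min, so it was higher only at 60 min (0.52, 0.29 to 0.76). ATP5J, a subunit of the ATP synthase, had 366, 373 and 509 (0.42, 0.23 to 0.62). PSMD12, of the proteasome lid, had 284, 296 and 380 (0.37, 0.14 to 0.59). These promoters were close to untreated at 40 min. POLR2G, a subunit of RNA polymerase II, went the other way, with 286, 248 and 235 fragments (-0.34, -0.59 to -0.082 at 60 min). CDT1, which licenses replication origins, had 154, 133 and 120 (-0.40, -0.77 to -0.059). Its GC-expected value was -0.28, and the interval then included 0.

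Histone genes, whose products form the nucleosome itself, had medians of 0.082 at 40 min and 0.14 at 60 min over 78 rows (GC-expected 0.11 and 0.14), with 18 higher (23.1%) and 4 lower (5.13%) at 60 min, beside 12.3% and 15.2% of all rows. HIST1H3B, a replication-dependent H3 gene, had 202 fragments untreated, 276 at 40 min and 307 at 60 min, and was higher at both times (0.50, 0.23 to 0.76, and 0.55, 0.29 to 0.82). The zinc finger genes of chromosome 19, a large family of transcription factor genes, had a median of 0.073 at 40 min (GC-expected 0.068), with 41 of 236 rows higher (17.4%) and 7 lower (2.97%), beside 8.71% and 9.32% of all rows. At 60 min it was 0.0030 (GC-expected 0.028), with 27 higher (11.4%) and 30 lower (12.7%), near the 12.3% and 15.2% of all rows.

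Promoters of genes that belong to other tissues had fewer light-digest fragments at both times. Over 7 lists with 815 rows (olfactory and taste receptors, keratins, beta-defensins, ion channels, HOX genes and protocadherins) the median was -0.091 at 40 min (GC-expected -0.043) and -0.11 at 60 min (GC-expected -0.15). Beyond counting error 30 rows (3.68%) were higher and 160 (19.6%) lower at 40 min, and 10 (1.23%) were higher and 225 (27.6%) lower at 60 min. Over all rows, 9.32% and 15.2% were lower. The median GC content of the 7 lists was 44.2%, below the 55.0% of all rows. Olfactory receptors supplied 93 of the 160 lower rows at 40 min and 98 of the 225 at 60 min.

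Olfactory receptors, which neurons of the nose use to sense odorants, had medians of -0.12 at 40 min and -0.11 at 60 min over 375 rows, with 98 lower and 4 higher at 60 min. Their median GC content was 41.1%, and the GC-expected values were -0.049 and -0.18. Centred on GC deciles the 40 min median was -0.0096. OR1G1 had 657 fragments untreated, 524 at 40 min and 473 at 60 min, a change of -0.28 (-0.45 to -0.11) and -0.53 (-0.70 to -0.35). Keratins and keratin-associated proteins, which build epithelium and hair, had -0.076 and -0.14 (GC-expected -0.046 and -0.15), with 45 of 143 rows lower and 1 higher at 60 min. KRTAP10-10 had 367, 358 and 268 fragments and was lower at 60 min (-0.50, -0.74 to -0.28). These 2 families thus pointed down at both times, and OR1G1 was below untreated at each of them.

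Ion channels and neurotransmitter receptors had medians of -0.023 at 40 min and -0.12 at 60 min (GC-expected -0.025 and -0.11). HOX genes, which specify position along the body axis, had -0.0047 and -0.15 (GC-expected -0.036 and -0.078). At 40 min 9.84% of the ion channel rows were lower and 9.29% higher, and 12.8% and 15.4% of the HOX rows. Over all rows these shares were 9.32% and 8.71%, so neither list had an excess of losses over gains like that of the pooled lists at 40 min. GRIN1, a subunit of the NMDA glutamate receptor, had 207 fragments untreated, 185 at 40 min and 133 at 60 min (-0.69, -1.02 to -0.37). HOXC8 had 511, 480 and 413 (-0.36, -0.55 to -0.17). Not every member went down, since HOXB5 had 416, 414 and 512 fragments and was higher at 60 min (0.25, 0.058 to 0.44). Protocadherins had -0.14 and -0.12 (GC-expected -0.076 and -0.16), and beta-defensins -0.15 and -0.056 (GC-expected -0.085 and -0.13). Taste receptors had -0.18 at 40 min (GC-expected -0.088) and 0.032 at 60 min (GC-expected -0.10), and the 60 min value was also negative as a mean and as a ratio of summed fragments.

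Markers of other blood cells had negative medians too. Myeloid genes had -0.097 at 40 min and -0.16 at 60 min (GC-expected -0.11 and -0.14). At 60 min 12 of 32 rows were lower (37.5%, beside 15.2% of all rows) and 1 higher (3.12%, beside 12.3%). AZU1, a granule protein of neutrophils, had 166 fragments untreated, 130 at 40 min and 103 at 60 min (-0.74, -1.11 to -0.38 at 60 min). T and NK cell genes had -0.082 at 40 min, with 3 of 38 rows lower (7.89%, beside 9.32% of all rows) and a GC-expected value of -0.020. At 60 min they had -0.051 (GC-expected -0.053), with 12 lower (31.6%, beside 15.2%) and 3 higher. NCR1, a receptor of NK cells, had 324, 301 and 241 (-0.48, -0.73 to -0.24). Of the B cell identity genes at 40 min, 1 of 38 rows was higher (2.63%, beside 8.71% of all rows) and 4 lower (10.5%, near 9.32%). Their median was -0.032 (GC-expected -0.0039). At 60 min it was 0.065 (GC-expected 0.050), with 6 higher (15.8%, near the 12.3% of all rows) and 2 lower (5.26%, beside 15.2%). MS4A1, which encodes CD20, had 248, 213 and 325 fragments (0.34, 0.095 to 0.58). CD79A, a signaling chain of the B cell receptor, had 450, 389 and 402 (-0.22, -0.41 to -0.018). These 2 genes were picked as the highest and the lowest of the list at 60 min, so their difference follows from the choice. Their GC-expected values at 60 min were 0.21 for MS4A1 and -0.135 for CD79A, and both intervals then included 0.

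**Figure D3:**
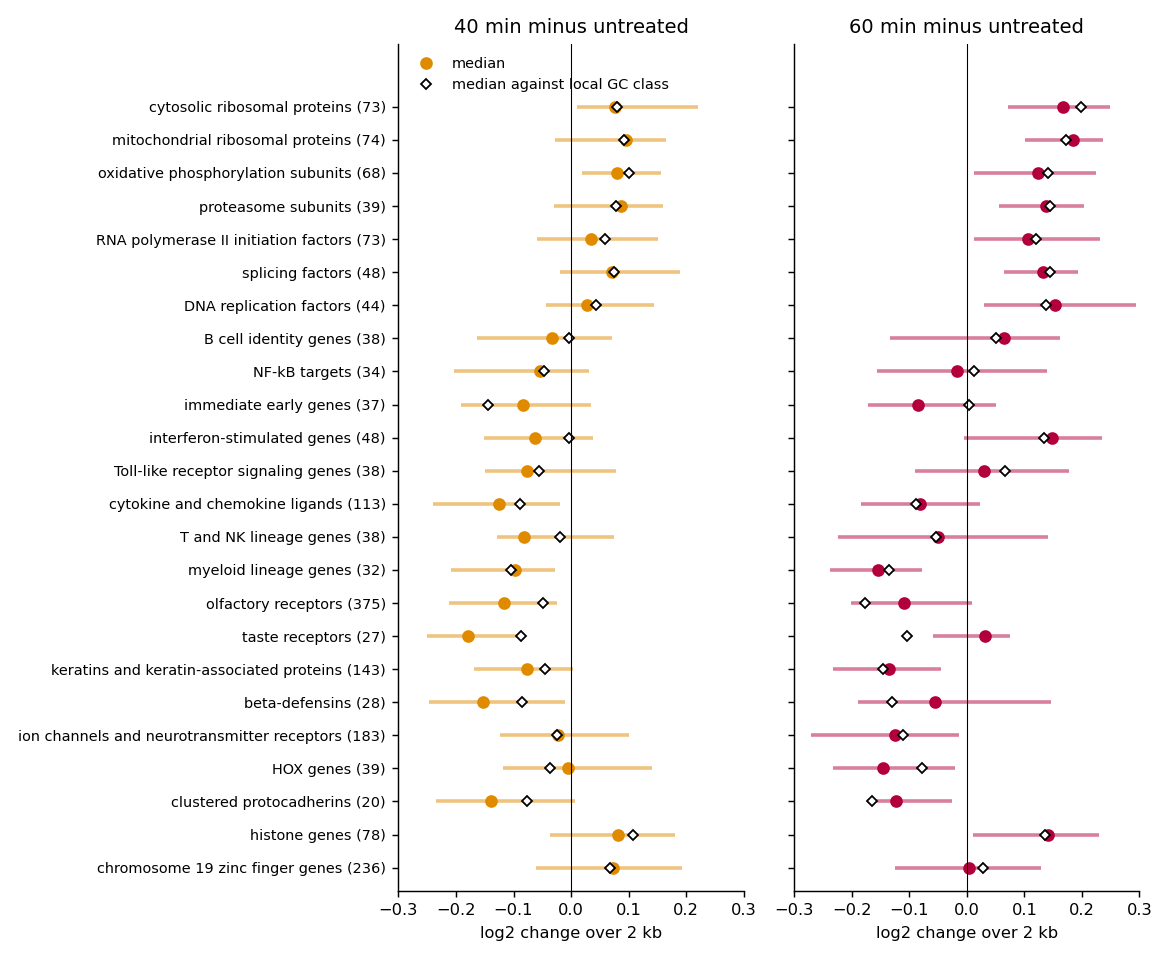
Median log2 change over 2 kb (filled circles) with quartiles over rows (bars) of 24 gene lists at 40 min (left) and 60 min (right), with the median against the GC-expected value as open diamonds and the number of rows in brackets. The 7 upper lists lie above 0 at both times, from 0.028 to 0.096 and from 0.11 to 0.19, and olfactory receptors, keratins and protocadherins below it.

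Where in the promoter the change lay differed between the lists. In the nucleosome-free region (-150 to -10 bp) the 420 rows of the 7 expressed lists had 4521 fragments untreated, 4952 at 40 min and 5443 at 60 min. As measured, and without allowance for GC content, this was a change of 0.18 (0.12 to 0.23) and 0.22 (0.16 to 0.27). Around the +1 nucleosome they had 13828, 14772 and 15043, which is 0.14 (0.11 to 0.17) and 0.069 (0.036 to 0.10). Around the -1 nucleosome the changes were 0.079 (0.043 to 0.11) and 0.18 (0.15 to 0.21). The 60 min gain was thus smaller at +1 than at -1. The 40 min gain was larger at +1 as measured, but not against the GC-expected values, which were 0.062 at +1 and 0.067 at -1. At 60 min these were 0.18 at +1 and 0.22 at -1.

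The silent lists were lower at 60 min, more so downstream of the TSS than upstream. Their 836 rows had 24154 fragments around +1 when untreated, 22263 at 40 min and 21787 at 60 min, a change of -0.073 (-0.10 to -0.047) and -0.20 (-0.23 to -0.18). Around -1 they had 16110, 14623 and 16387, a change of -0.096 (-0.13 to -0.063) and -0.028 (-0.059 to 0.0035). The GC-expected values at 60 min were -0.20 at +1, -0.094 at -1 and -0.15 in the nucleosome-free region, so the loss upstream was then no longer near 0. At 40 min they were -0.052 at +1 and -0.037 at -1.

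**Figure D4:**
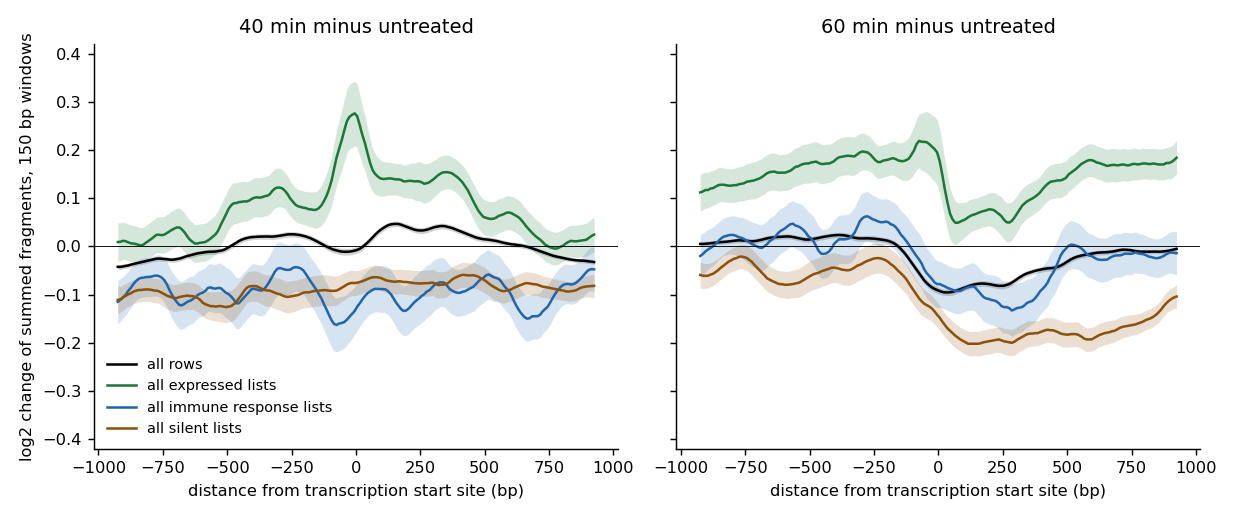
Log2 change from untreated of fragments summed over each group of lists in running 150 bp windows, by distance from the TSS, with bands for the exact 95% counting interval. At 40 min the expressed lists peak at -5 bp (0.28), and at 60 min they peak at -75 bp (0.22) and are lowest at 75 bp (0.049), where the silent lists fall to -0.20 nearby, at 115 bp.

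Immune response genes were lower at 40 min, as the silent lists were, and the 5 immune lists diverged at 60 min. Over these 5 lists with 257 rows the median was -0.091 at 40 min (GC-expected -0.077). Beyond counting error 58 rows (22.6%) were lower and 5 (1.95%) higher, beside 9.32% and 8.71% of all rows. Of the 58, 37 were cytokine and chemokine ligands. The silent lists had the same 40 min median (GC-expected -0.043), with 19.6% of rows lower and 3.68% higher. At 60 min it was -0.018 (GC-expected -0.033), with 45 rows (17.5%) lower and 27 (10.5%) higher, beside 15.2% and 12.3% of all rows, so at this time their shares were near those of all promoters. The medians at 40 min were negative in each of the 5 lists, from -0.13 to -0.054.

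Interferon-stimulated genes, which encode antiviral and antibacterial effectors, went from -0.062 at 40 min (GC-expected -0.0042) to 0.15 at 60 min (GC-expected 0.13). At 60 min 14 of 48 rows were higher (29.2%, beside 12.3% of all rows) and 6 lower (12.5%, beside 15.2%). IFI44 had 135 fragments untreated, 146 at 40 min and 199 at 60 min (0.50, 0.19 to 0.83). Its GC-expected value at 60 min was 0.30, and the interval then included 0. LGALS3BP, a secreted glycoprotein, had 448, 368 and 333 and was lower at both times (-0.24, -0.44 to -0.037, and -0.48, -0.69 to -0.27). IFI44 and LGALS3BP were picked as the highest and the lowest of the list at 60 min, so their difference follows from the choice. By sign alone, 35 of the 48 rows were above and 13 below untreated at 60 min.

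Cytokine and chemokine ligands, the secreted signals of the response, had -0.13 at 40 min (GC-expected -0.088) and -0.081 at 60 min. At 40 min 37 of 113 rows were lower (32.7%, beside 9.32% of all rows) and 0 higher (beside 8.71%). At 60 min 27 were lower (23.9%, beside 15.2%) and 4 higher (3.54%, beside 12.3%). Toll-like receptor signaling genes, which sense bacterial products, had -0.076 and 0.030 (GC-expected -0.055 and 0.066). MAPK8, the JNK1 kinase, had 161 fragments untreated, 140 at 40 min and 252 at 60 min (0.59, 0.30 to 0.89), at a GC content of 32.5%, and its GC-expected value was 0.38. TRAF3, a signaling adaptor, had 120, 115 and 81 (-0.62, -1.04 to -0.20), at a GC content of 76.2%, with a GC-expected value of -0.45.

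NF-kB targets had -0.054 at 40 min and -0.017 at 60 min (GC-expected 0.013), with 6 of 34 rows higher (17.6%) and 7 lower (20.6%) at 60 min, near the 12.3% and 15.2% of all rows. BIRC3, an inhibitor of cell death, had 279, 268 and 395 fragments (0.45, 0.22 to 0.68). ICAM1, an adhesion molecule, had 325, 280 and 257 (-0.39, -0.63 to -0.15). Immediate early genes, the first to be transcribed after a stimulus, had -0.084 at 40 min (GC-expected -0.14) and -0.085 at 60 min (GC-expected 0.0042). DUSP5, a phosphatase that limits ERK signaling, was lower at both times, with 226, 146 and 186 fragments (-0.59, -0.90 to -0.28, and -0.33, -0.62 to -0.047). At 60 min its GC-expected value was -0.24, and the interval then included 0.

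A set of 20 genes of the response to bacterial products and of the B cell factors the study examined was followed singly. Beyond counting error over 2 kb, 0 were higher and 2 lower at 40 min, and 3 were higher and 2 lower at 60 min. Over all rows 8.71% and 9.32% were higher and lower at 40 min and 12.3% and 15.2% at 60 min, so the number called in this set was near that of all promoters. CCL3, a chemokine that draws monocytes and T cells, had 697 fragments untreated, 740 at 40 min and 965 at 60 min, a change of 0.13 (-0.021 to 0.28) and 0.42 (0.28 to 0.56). CCL4, its neighbor on chromosome 17 with a similar function, had 576, 500 and 735, a change of -0.16 (-0.34 to 0.016) and 0.30 (0.14 to 0.46). In the 200 bp before its TSS CCL4 had 68, 57 and 107 fragments (0.59, 0.15 to 1.06 at 60 min). The 60 min table was thus the highest at both chemokine promoters.

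ISG15, a ubiquitin-like protein that interferon induces, had 242 fragments untreated, 262 at 40 min and 326 at 60 min over 2 kb (0.37, 0.13 to 0.62 at 60 min, GC-expected 0.44). The gain was concentrated just before the TSS, where it had 49, 56 and 111 fragments, a change of 0.25 (-0.34 to 0.82) at 40 min and 1.12 (0.63 to 1.64) at 60 min. Its 150 bp before the TSS are printed because an interferon response element lies in this window. Capitals mark every match to GAAANNGAAA.
ISG15 (GRCh37, chr1:948697-948846, plus strand): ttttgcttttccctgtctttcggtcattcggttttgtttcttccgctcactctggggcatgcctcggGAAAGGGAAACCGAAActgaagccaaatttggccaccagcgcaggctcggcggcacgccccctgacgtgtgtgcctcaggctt
The capitals join 2 overlapping matches. On either strand of the 200 bp before the TSS, 462 of 21837 rows (2.12%) held this motif. The holders had a median 2 kb change of -0.039 at 40 min and 0.022 at 60 min, which became -0.0073 and -0.0024 against the GC-expected values. In the 200 bp before the TSS their median at 60 min was -0.019, so the ISG15 value was not shared by most rows with the same letters.

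Among the 20 genes, 2 were lower beyond counting error at 40 min and 2 at 60 min, a number near that of all promoters. By sign alone, 6 were above and 14 below untreated at 40 min, and 9 above and 11 below at 60 min. NFKBIA, the inhibitor that ends NF-kB signaling, had 397 fragments untreated, 287 at 40 min and 383 at 60 min, so it was lower at 40 min (-0.42, -0.65 to -0.20) and near untreated at 60 min (-0.10, -0.31 to 0.10). EBF1, a transcription factor of the B lineage, had 279, 211 and 276 (-0.36, -0.62 to -0.096 at 40 min). FOS had 454, 400 and 400 fragments, a change of -0.24 (-0.43 to -0.038) at 60 min with a GC-expected value of -0.11. JUNB had 426, 378 and 374, a change of -0.24 (-0.45 to -0.037) with a GC-expected value of -0.15. FOS and JUNB encode subunits of AP-1, and against the GC-expected values both intervals included 0. TNF, the inflammatory cytokine, had 686, 648 and 665, and SPI1, which encodes Pu1, had 589, 637 and 582, both with intervals that include 0. In all, 18 of the 20 at 40 min and 15 at 60 min had such an interval.

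**Figure D5:**
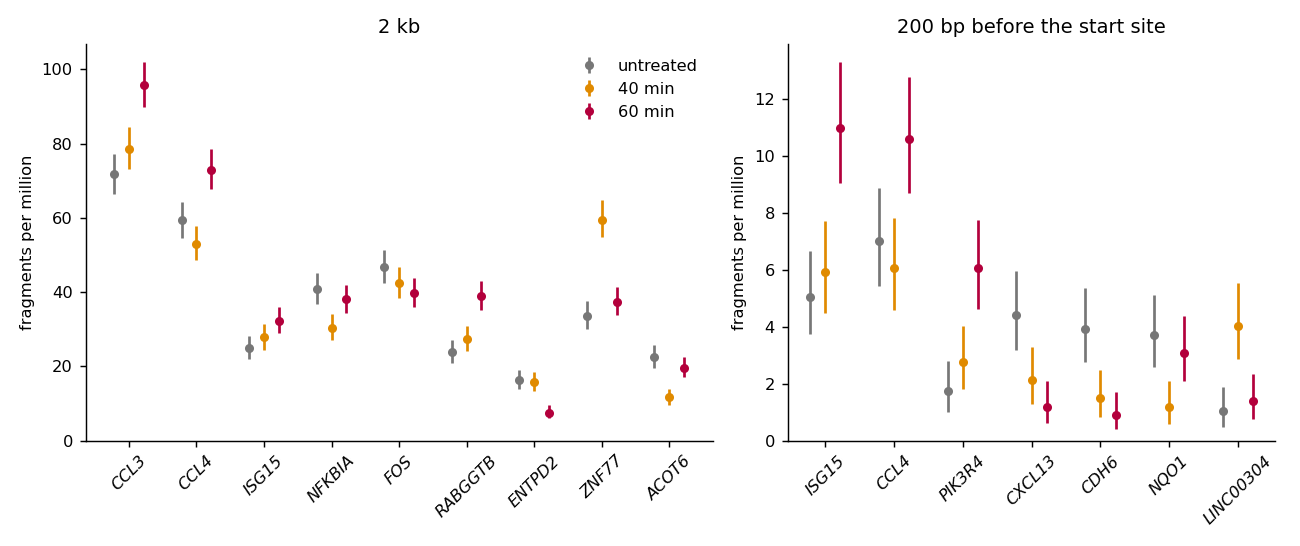
Levels, in rpm, with exact 95% Poisson intervals at 9 promoters over 2 kb (left) and 7 in the 200 bp before the TSS (right) in the untreated, 40 min and 60 min tables. CCL3, CCL4, ISG15 and RABGGTB stand highest at 60 min, ENTPD2 lowest, and ZNF77 and ACOT6 stand apart at 40 min alone.

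The largest gains over 2 kb at 60 min had a lower median GC content than the largest losses, with some overlap. These promoters were ranked by their change, so their values are a description. The 8 largest gains ran from 0.67 to 0.81 and had a median GC content of 42.8% (32% to 58.6%). The first was SNORD45C, a small nucleolar RNA gene, with 224 fragments untreated, 245 at 40 min and 406 at 60 min. It lies in RABGGTB, a subunit of the enzyme that attaches lipids to Rab proteins, and the 2 rows share fragments, so RABGGTB (231, 257 and 393) is not a separate case. BPNT1, a nucleotide phosphatase, had 168, 196 and 282 (0.70, 0.41 to 0.98). MIR217, LIPH, SLC4A7, IER3IP1 and YDJC completed the set. None of the 8 was beyond counting error at 40 min.

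The 8 largest losses ran from -1.11 to -0.78, with a median GC content of 66.0% (54.5% to 72.3%), and 5 were at 60% or more. ENTPD2, an enzyme that breaks down extracellular ATP, had 158 fragments untreated, 148 at 40 min and 76 at 60 min (-1.11, -1.52 to -0.71), and no fragment in any table in the 200 bp before the TSS. Its GC-expected value was -0.94. MIR1324 had 156, 132 and 75 (-1.11, GC-expected -1.05) and KRT16P2, a keratin pseudogene that resembles other keratin genes, 139, 117 and 69 (-1.06, GC-expected -0.91). FAM163B stood out by a loss at both times, with 364, 237 and 202 fragments (-0.57, -0.82 to -0.34, and -0.90, -1.16 to -0.65), although its deposited start lies 5951 bp from the nearest GENCODE start. RASSF7, MIR4739, PAQR9 and LOC400558 completed the set, and PAQR9 was also lower at 40 min (-0.35, -0.68 to -0.039).

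At 40 min the medians of GC content were in the opposite order. The 4 largest gains had a median GC content of 61.2% and the 4 largest losses 40.0%. ZNF77, a zinc finger gene, had 327 fragments untreated, 561 at 40 min and 377 at 60 min (0.82, 0.62 to 1.02, GC-expected 0.76). DUS1L had 125, 203 and 138 (0.74), and RNU6ATAC, a small RNA of the minor spliceosome, 130, 203 and 167 (0.69). PHYH, a peroxisomal enzyme of phytanic acid breakdown, kept its gain, with 114, 183 and 180 fragments (0.72, 0.38 to 1.08, and 0.60, 0.26 to 0.96). ACOT6, an acyl-CoA thioesterase gene, had 218, 109 and 198 (-0.95, -1.30 to -0.62, GC-expected -0.88), so its fragments were fewest at 40 min and close to untreated at 60 min. SMIM18 (-0.71), CC2D2B (-0.70) and CLEC18B (-0.69) followed.

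In the 200 bp before the TSS, among rows with a mean of at least 20 fragments there, the largest gains at 60 min were at PIK3R4 and SEMA4F (both 1.73), STX12 (1.55), ACTR8 (1.46) and SUGT1P1 (1.44). PIK3R4, the regulatory subunit of the Vps34 lipid kinase, had 17 fragments untreated, 26 at 40 min and 61 at 60 min (1.73, 1.00 to 2.66). SEMA4F, a semaphorin, had 10, 19 and 35, and STX12, a syntaxin of endosomes, 10, 24 and 33. All 5 had more fragments at 40 min than untreated, and 1 of them, STX12, beyond counting error (1.23, 0.19 to 2.54). The largest losses were at CDH6 (-2.0), CXCL13 (-1.81), LOC728716 (-1.72), PRDM7 (-1.65) and MIR593 (-1.57). CXCL13, the chemokine that draws B cells into follicles, had 43, 20 and 12 fragments (-1.02, -1.90 to -0.26, and -1.81, -2.95 to -0.95), while its 2 kb changed by -0.080 at 60 min. CDH6, a cadherin, had 38, 14 and 9 and was also lower at both times.

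At 40 min the largest gains in this window were at LINC00304 (10, 38 and 14 fragments, 1.85), INHA (11, 36 and 27, 1.70) and MRP63 (10, 27 and 28, 1.46). INHA encodes a subunit of inhibin, and the last 2 were higher at 60 min as well. The largest losses were at NQO1 (36, 11 and 31, -1.57), SCEL (50, 16 and 26, -1.55) and CNTNAP1 (54, 18 and 19, -1.54). NQO1, a quinone reductase, was close to its untreated number at 60 min (-0.26, -1.01 to 0.47), while SCEL and CNTNAP1 were lower at both times.

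Short promoter motifs were described over the 21837 rows with sequence, in the 200 bp before the TSS and on both strands. A match is no sign that a factor binds. The 687 rows (3.15%) with CCGGAAGT, an ETS site, had a median 2 kb change of 0.064 at 40 min and 0.12 at 60 min (GC-expected 0.052 and 0.14). The 371 rows (1.70%) with TGACGTCA, a cAMP response element, had 0.060 and 0.058 (GC-expected 0.045 and 0.090). The ETS rows stood above the rows without the motif (0.0010 and -0.012) at a median GC content of 55.1%, close to that of the others. Rows with TATAAA (7.92%) had -0.079 and -0.024 (GC-expected -0.028 and -0.076), at a median GC content of 45.2%. Rows with TGANTCA, an AP-1 site (4.24%), had -0.063 and -0.046 (GC-expected -0.030 and -0.063). Rows with GGGCGG (46.1%), a GC box, had 0.048 and 0.014 at a median GC content of 59.5%, and their GC-expected values of 0.021 and 0.061 had the opposite order. Rows with CCAAT (28.4%) had -0.00021 and 0.016 (GC-expected 0.0045 and 0.024). GGGANTTTCC, an NF-kB site, was present in 71 rows (0.325%), which had -0.039 and 0.0031 (GC-expected -0.041 and 0.035).

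By chromosome the medians were small and followed GC content in part. They were taken for chromosomes 1 to 22 and X, and the rows of chromosome Y were given no median of their own. At 40 min they ran from -0.022 on chromosome 12 to 0.043 on chromosome 16, with 14 of 23 above 0. At 60 min they ran from -0.069 on chromosome 19 to 0.042 on chromosome 4, with 9 above 0. Chromosome 19, with a median GC content of 57.6%, had -0.014 against the GC-expected value. Chromosome X had a median of -0.068 at 60 min at a GC content of 51.0%, and against the GC-expected value it was -0.070, the lowest of the 23, while at 40 min it had -0.016. Its 823 rows had quartiles of -0.18 and 0.054 at 60 min.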

How the data were processed

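The authors aligned paired reads to hg19 (with Bowtie2, version 2.2.2 in the submitters' notes, which also name SAMtools and bedtools), counted centers of fragments of 140 to 200 bp in 60 bp windows, scaled them to the depth and deposited rpm values in bins of 10 bp, 1 table per group with both replicates pooled. The values rise in steps worth 0.5 of 1 fragment; 100% lay within 0.05 of a whole step, so whole fragments were recovered, and a fragment enters 6 windows. Bins without a value (10.8%) were left out. The 3 light-digest tables of 8 were used; the others were not used here. For 79.9% of rows GENCODE places a transcript start on GRCh37 at most 50 bp away. Sequences and GC content came from GRCh37.

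Changes are log2 of fragments plus 0.5 over depth, with exact conditional (Clopper-Pearson) 95% intervals. Peaks were read from a running mean of 3 positions, and nucleosome windows span 70 bp either side of them. Medians used rows with a mean of at least 20 fragments (10 from -200 to 0 bp), fold calls at least 100 (20), 1.5-fold or 2-fold and an interval that leaves out 0. The promoters named are the 8 largest rises and falls over 2 kb at 60 min and the 4 at 40 min, the 5 and 3 from -200 to 0 bp, 20 response genes, and the highest and lowest member of each list at 60 min; 1 list member and 1 promoter sequence are not reported here. The members, lists and motifs were chosen with earlier results of these data known. The intervals and the GC allowance were tested on simulated fragments. Python 3.11.15, numpy 2.4.6, pandas 2.3.3, scipy 1.17.1 and matplotlib 3.10.9 were used. The tables used pool both replicates, so depth is known per table, at 9.43 to 10.1 M fragments.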

Additional observations from a re-analysis of the deposited data

How the results depend on the processing

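No paired analysis was possible because each table pools both replicates, and no replicate could be left out. Medians over 2 kb at 40 min, 60 min, and 60 min against 40 min were 0.0033, -0.0073 and -0.0065. They moved, with scaling to fragments on rows, to 0.0061 at 60 min and 0.0041 against 40 min; by median of ratios, to 0.00014 and 0.0015; without a minimum, to -0.011 and -0.0098; with 1 row per gene, to -0.0029 at 40 min and -0.015 at 60 min; centred on GC deciles, to 0, 0 and 0; as ratio of sums, to -0.0029, -0.014 and -0.011. The mean gave -0.015 against 40 min, and the local GC class 0.0059 at 60 min and -0.0013 against 40 min. From -200 to 0 bp, 40 min was 0.044 without a minimum, -0.026 with a minimum 2 times as high, 0.0027 as a mean, 0.0032 around the -1 peak and -0.017 by local GC class. At 60 min the values were -0.018 (fragments on rows), -0.053 (no minimum), -0.049 (higher minimum), -0.022 (GC deciles), -0.041 (sums), -0.00026 (-1 peak) and -0.0026 (local GC class).

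Counts of large changes depended on the minimum. Over 2 kb, without it 58 rows were higher and 29 lower at 40 min and 49 and 101 at 60 min; with a minimum 2 times as high these were 8, 5, 13 and 20. Before the TSS they were 290, 177, 290 and 226 without it, 6, 11, 7 and 10 with the higher one, and 21, 35, 34 and 49 with 5 fragments added. Centred on GC deciles, 9 rows were lower at 40 min and 41 at 60 min; by local GC class 10 were higher and 10 lower at 40 min, and 25 lower at 60 min. Peak positions moved by at most 10 bp without smoothing. The local GC class was chosen after seeing the data. Under it, 19 of the 2 kb changes of named promoters were no longer beyond counting error. Another 14 came to be beyond it, and 181 kept their status. Changes of sign under an alternative were counted over the lists other than the chromosome 19 zinc finger genes, whose 60 min median was 0.0030. Medians of 5 of these lists changed sign. They were interferon-stimulated genes (0.017 with GC deciles) and HOX genes (0.0093 as a mean) at 40 min. At 60 min they were NF-kB targets (up to 0.013), immediate early genes (0.0042) and taste receptors (down to -0.10). The cause was not tested.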
